A study of Homo sapiens with 2 samples.

Results

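The rows of the proteasome were those whose gene symbol is PSM, a letter from A to G and a number. The rule used the symbol alone and found 48 of the 60616 genes in the tables. HSC-3, an established human line that the labels give as HNSCC (squamous carcinoma of the head and neck), was treated with 1 µM FIN56 for 48 h in 1 library and with 0.1% DMSO, the vehicle, in the other. FIN56 induces ferroptosis, a death driven by peroxidized lipids, and the study applied it at a sublethal dose to find the genes that such stress changes in HNSCC cells. Both cultures were grown in DMEM with FBS and P/S. The labels give a time for the FIN56 culture only.

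The proteasome is the protease that degrades proteins tagged with ubiquitin. Its 20S core is a barrel of outer rings of alpha subunits, which gate the entry, and inner rings of beta subunits, 3 of which cut peptide bonds. The 19S regulator caps the barrel. A ring of ATPases in its base unfolds the substrate, and its lid removes ubiquitin. Interferons induce the immunosubunits PSMB8, PSMB9 and PSMB10, which take the places of the catalytic subunits PSMB5, PSMB6 and PSMB7 and shift the peptides made towards those that HLA class I presents. Dedicated chaperones assemble core and base. Cancer cells depend on the proteasome for their protein turnover, and inhibitors of the core are used as drugs.

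The expected counts, which are RSEM estimates of reads per gene, totalled 70184517 for DMSO and 73062209 for FIN56. All 6 squamous epithelial markers were expressed, with a summed FPKM (fragments scaled for transcript length and library size) of 4137 in DMSO and 3802 in FIN56, led by KRT5. Markers of other cells were near 0, with sums of 0.080 and 0.060 for 2 endothelial genes and 0.85 and 0.73 for 3 fibroblast genes. The leukocyte markers PTPRC and CD3E were at 0 in both libraries. CD68, a lysosomal protein that is not restricted to leukocytes, had 57.3 in DMSO and 24.6 in FIN56. The part of CD68 in the results below was not tested. In bulk RNA, fewer cells and less RNA per cell cannot be told apart. Each condition was sequenced once, so no test between the conditions could be made and no value below has a replicate check.

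The proteasome transcripts of HSC-3 cells were abundant and differed little between DMSO and FIN56. Of the 48 genes, 46 had an FPKM above 0 in both libraries, with a median level of 124 FPKM in DMSO and 119 in FIN56. The median log2 FPKM ratio, FIN56 over DMSO, was -0.0087, against 0 over all 24454 genes compared. Its sign is not settled, since it was 0.023 by TPM, a scaling to equal sums, and -0.030 by counts scaled by library totals. The same median was 0.044 over the 6919 genes at or above 10 FPKM in each library. They are called genes of like level here since 45 of the 46 proteasome genes belong to them. The name marks a floor and not a match of level, since their median level in DMSO was only 29.3 FPKM. In all, 22 proteasome genes were higher and 24 lower with FIN56. Of all 24454 genes compared 11770 were higher and 11299 lower, and of the genes of like level 3915 and 2998. Together the proteasome genes held 1.05% of the summed FPKM of all genes in DMSO and 1.06% in FIN56.

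At the fold of 1.5 that the study uses, 0 of the 46 genes were higher, where 14.7% of all genes compared and 1.97% of the genes of like level were. At 1/1.5 or less stood 2 genes, PSMG4 and PSMB10 (1 by counts, PSMG4), where the background was 17.3% of all genes and 3.76% of those of like level. At a fold of 1.2, 1 gene was higher, PSMD12, against a background of 28.2% of all genes and 19.1% of genes of like level. At 1/1.2 or less were 5 genes, PSMG4, PSMB10, PSMC5, PSMD13 and PSMD5, against 29.7% and 15.8%. The other 40 genes (87.0%) lay within 1.2 of no change either way, as did 65.1% of the genes of like level. The standard deviation of the log2 ratio was 0.22 over the proteasome genes and 0.31 over the genes of like level. The latter had a lower median level, 29.3 against 124 FPKM in DMSO. The part of level in the narrower spread was not tested. Proteasome genes share complexes and are not independent replicates, so these figures describe a spread in 2 libraries. For each gene a 95% interval was computed from the FIN56 share of its counts. It lay above 1 for 16 of the 46 genes and below 1 for 22, and included 1 for 8. It covers counting error only and compares these 2 libraries, not the conditions. Among genes of like level 44.4% lay above 1 and 37.5% below.

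**Figure D1:**
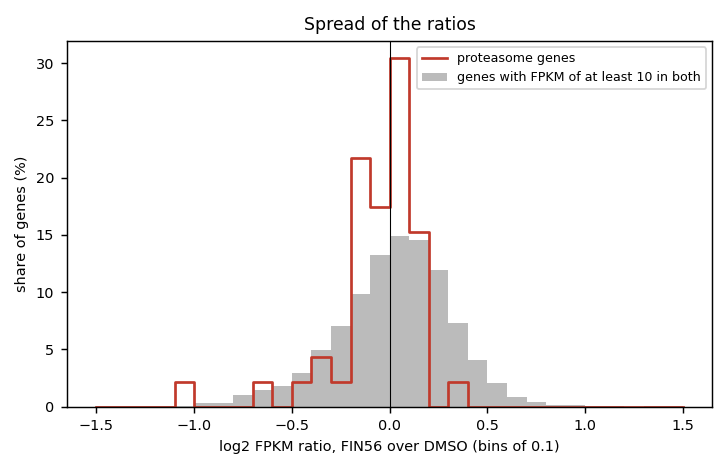
Share of genes (percent) in bins of 0.1 of the log2 FPKM ratio, FIN56 over DMSO, for the proteasome genes (red line) and the genes at or above 10 FPKM in each library (grey bars), between -1.5 and 1.5. Most proteasome genes sit close to 0, and PSMG4 and PSMB10 stand apart on the left.

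By group median the constitutive genes of the 20S core were the most abundant of the proteasome, though single genes of other groups stood above some of them. The 14 constitutive alpha and beta genes had a median level of 251 FPKM in DMSO and 243 in FIN56, and their levels in DMSO differed by at most 2.80 times. PSMA6, an alpha subunit, had the highest level of all proteasome genes, with 389 FPKM in DMSO and 430 in FIN56. In the DMSO library PSMA7, another alpha subunit, was the second in order, with 364 in DMSO and 332 in FIN56. Next in DMSO came PSMD2, a scaffold of the 19S base, then the alpha subunit PSMA1, with 329 in DMSO and 306 in FIN56. PSMB7, which cuts after basic residues, followed with 311 and 334. In FIN56 the order after PSMA6 was PSMD2, PSMB7, PSMA7 and PSMA1.

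None of these 14 core genes was past 1.2 in either direction. Among the 7 alpha genes 3 were higher and 4 lower, with a median ratio of 0.928. Their ratios ran from 0.907 for PSMA5, which had 139 FPKM in DMSO and 126 in FIN56, to 1.11 for PSMA6. Reads of PSMA6 may be shared with another gene, ENSG00000258790 (AL121594.1 in the tables), which covers 919 of its exonic bases on the same strand. That gene had 3698 expected counts in DMSO and 2145 in FIN56, so that the count ratio of PSMA6, scaled by library totals, was 1.09 alone and 1.02 with those counts added. PSMA2, likewise an alpha subunit, went from 1.07 to 1.02 in the same way.

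Among the 7 constitutive beta genes 5 were higher and 2 lower, with a median ratio of 1.03. The median ratio of the genes of like level was also 1.03, and 3915 of those 6919 were higher. For 4 of the 7 beta genes the counting interval included 1. PSMB2, counted as higher by FPKM, had a count ratio of 0.991. The highest ratio was that of the catalytic PSMB7, at 1.07 (counting interval of the count ratio 1.05 to 1.10). PSMB4, a non-catalytic subunit, had the lowest, with 242 FPKM in DMSO and 227 in FIN56 and a ratio of 0.940. PSMB5, the chymotrypsin-like subunit and the main target of bortezomib, had 190 in DMSO and 201 in FIN56. Its ratio was 1.06 (counting interval 1.03 to 1.08). PSMB6, the caspase-like subunit, had 260 and 259. Its counting interval, 0.973 to 1.02, included 1.

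**Figure D2:**
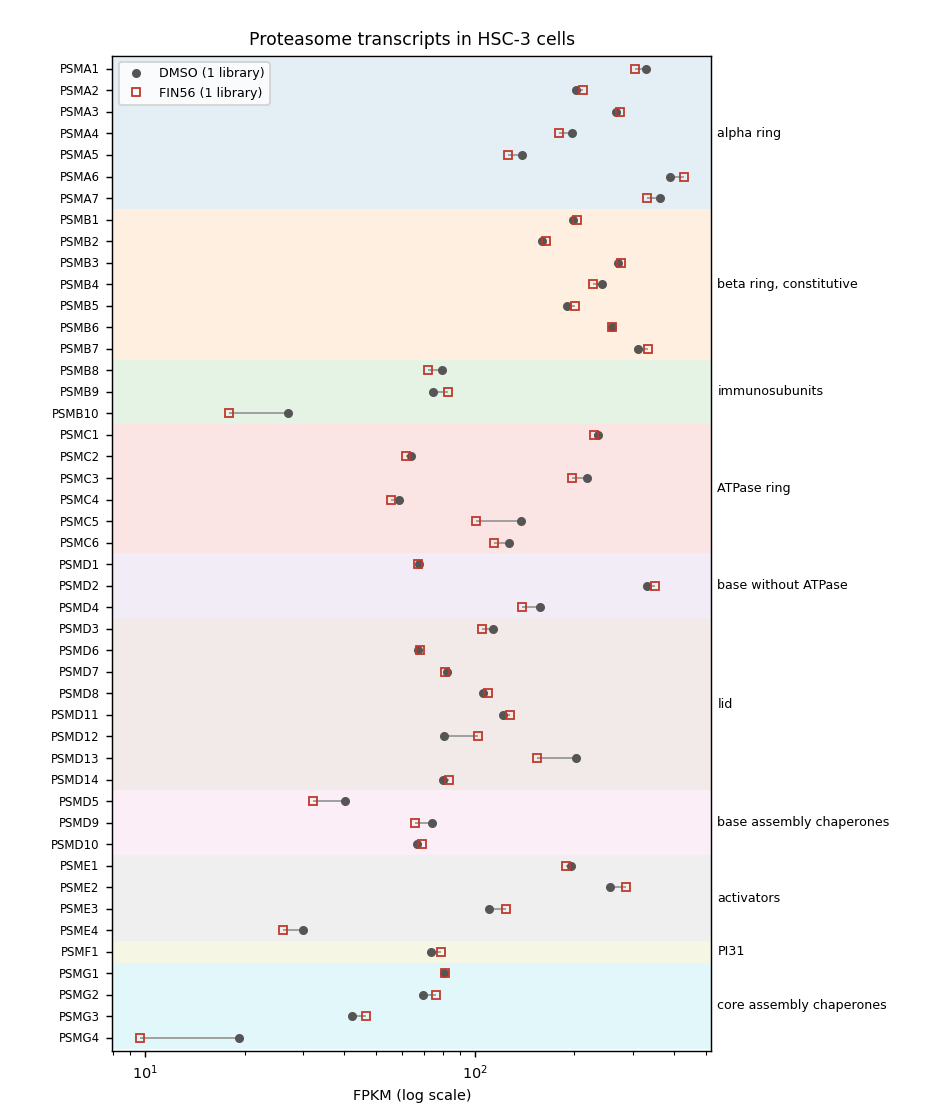
FPKM (log scale) of the 46 proteasome genes with a level above 0 in both libraries, grouped by role, with a filled circle for the DMSO library and an open square for the FIN56 library. Most constitutive core genes sit to the right, and the widest gaps between the libraries belong to PSMG4 and PSMB10.

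The 3 immunosubunits stood on different sides of 1, with PSMB10 well below it. PSMB8 (ENSG00000204264, chromosome 6, 32840717 to 32844679, minus strand, GRCh38) had 79.1 FPKM in DMSO and 71.9 in FIN56. PSMB9 (ENSG00000240065, chromosome 6, 32844136 to 32859851, plus strand) had 74.6 and 82.7. PSMB10 (ENSG00000205220, chromosome 16, 67934506 to 67936864, minus strand) had 27.2 and 17.9. PSMB8 was slightly lower with FIN56, PSMB9 slightly higher and PSMB10 lowest, at ratios of 0.909, 1.11 and 0.659. The counting intervals of the count ratio were 0.882 to 0.950, 1.05 to 1.14 and 0.618 to 0.723. PSMB8 and PSMB9 are neighbours on opposite strands, and by GENCODE release 44 they share 139 exonic bases, so reads there can be told apart only by strand. PSMB10 lay just past 1/1.5 by FPKM, with 1570 and 1093 expected counts. It was just short of that fold by TPM, at 0.674, and by counts, at 0.669. By rlog, which shrinks differences, its ratio was 0.870. Its counts were not whole, and ENSG00000261884 covers 640 exonic bases of PSMB10 on the same strand. With the counts of that gene added the count ratio of PSMB10 was 0.698.

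Beside their constitutive counterparts the immunosubunits were the minority in both libraries. PSMB8 made up 29.4% of the summed FPKM of PSMB8 and PSMB5 in DMSO and 26.4% in FIN56. For PSMB9 with PSMB6 the shares were 22.3% and 24.2%. PSMB10, which replaces the trypsin-like PSMB7, made up 8.03% and 5.09%. By expected counts, which are not scaled for length, PSMB8 held 31.4% (95% exact binomial interval 30.8 to 32.1) in DMSO and 28.5% (27.8 to 29.1) in FIN56. PSMB9 held 27.3% (26.6 to 27.9) and 29.2% (28.5 to 29.8), and PSMB10 7.56% (7.21 to 7.93) and 4.84% (4.57 to 5.13). These intervals cover counting error only and are narrow at this depth, where the interval of the count ratio also lay off 1 for most genes of like level (44.4% above and 37.5% below). The constitutive transcripts outnumbered the immunosubunits, all 3 of each summed, by 4.21 times in DMSO and 4.60 times in FIN56 on the FPKM scale.

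**Figure D3:**
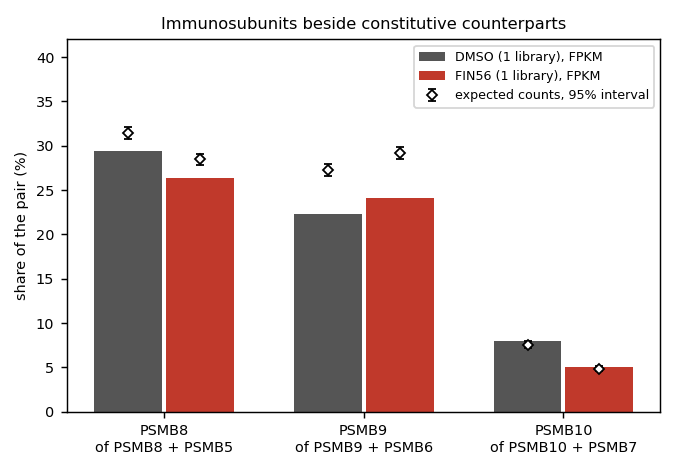
Share (percent) of each immunosubunit in the sum with its constitutive counterpart, for the DMSO and the FIN56 library. Bars are FPKM shares, and diamonds are shares of expected counts with their 95% exact binomial interval. The share of PSMB8 and PSMB10 is lower with FIN56 and that of PSMB9 higher.

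The genes that carry peptides on to HLA class I, and their interferon control, were read beside the immunosubunits from a list of 8 genes. B2M, the light chain of HLA class I, had 678 FPKM in DMSO and 1013 in FIN56, a ratio of 1.49. The other 7 genes lay within 1.2 of no change by FPKM. TAP1, a subunit of the peptide transporter that lies beside PSMB9, had 53.0 and 62.4. NLRC5, the transactivator of class I genes, had 6.29 and 5.92, a ratio of 0.941 by FPKM and 0.767 by counts (counting interval 0.697 to 0.843). B2M was thus higher with FIN56, on the other side of 1 from PSMB8 and PSMB10.

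The promoters of several interferon-inducible proteasome genes, though not of PSMB9, hold a sequence that the symbol rule did not use. Promoter windows of RefSeq (GRCh38.p14), from 250 bases before to 50 after a start, were found for 42 of the 48 genes. The 6 not matched were PSMA7, PSMB1, PSMB6, PSMB7, PSMD4 and PSMG3. The core of the interferon-stimulated response element, searched as GAAANNGAAA on both strands, was in the windows of 7 of the 42 genes (16.7%) and of 4.38% of the 27305 genes in the table. The 5 motifs searched may overlap each other, and the table holds non-coding genes whose base composition was not matched. The matches near the start of PSMB10, PSMB8, PSME2, PSME1 and PSMG4 are shown because the first 4 belong to genes known to respond to interferon and the last to the gene with the lowest ratio. Each is a stretch of 30 bases, 5′ to 3′ on the strand of the gene, with the match, or its reverse complement, in capitals.
PSMB10 (chr16:67936852-67936881, minus): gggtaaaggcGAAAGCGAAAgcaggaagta
PSMB8 (chr6:32844032-32844061, minus): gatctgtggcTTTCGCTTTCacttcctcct
PSME2 (chr14:24146619-24146648, minus): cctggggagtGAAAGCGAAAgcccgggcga
PSME1 (chr14:24136189-24136218, plus): gccctaccgcTTTCGCTTTCccttcgcggt
PSMG4 (chr6:3258904-3258933, plus): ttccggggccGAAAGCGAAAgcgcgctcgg
The other matches were in PSMA4 and PSMB4, and the window of PSMB9 held none. All 5 stretches shown hold the same GAAAGCGAAA on the strand of the gene or the other strand, from 33 bases before the start (PSMG4) to 6 after it (PSME1). Of the 7 genes with a match, 6 had an FPKM ratio below 1, and PSME2 was the exception. Of all 46 proteasome genes compared, 24 were below 1. A link between the match and the ratio was not tested. Their median log2 ratio was -0.13, against 0.017 for the other proteasome genes with a window. A match in these letters is a description and not a bound site.

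Of the 17 genes of the 19S regulator 6 were higher and 11 lower, against 8 and 6 of the 14 constitutive core genes. This difference was not tested. Of the 6919 genes of like level 3915 were higher and 2998 lower. The median log2 ratios were -0.040 for the 19S genes, 0.036 for the core and 0.044 for the genes of like level. By counts PSMD6 and PSMD11 of the 19S and PSMB2 of the core, counted as higher here, were below 1. The summed FPKM of the 17 genes was 2251 in DMSO and 2144 in FIN56, a ratio of 0.952. That of the core was 3518 and 3526, a ratio of 1.00. Over all genes compared the ratio of the summed FPKM was 0.978. On the count scale the median log2 ratio was -0.091 for the 19S genes, 0.012 for the core and 0.026 for the genes of like level. The 19S median was thus below the core median on both scales.

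All 6 genes of the ATPase ring, PSMC1 to PSMC6, had an FPKM ratio below 1, with a median of 0.923, but PSMC1 was at 1.0041 by rlog and 1.0091 by DESeq2 size factors. The counting interval lay below 1 for 5 of them, and that of PSMC1, from 0.964 to 1.005, included it. Among genes of like level 37.5% lay below 1. PSMC5, which encodes the ATPase Rpt6, had the lowest ratio of the ring. Its FPKM was 138 in DMSO and 101 in FIN56, from 11259 and 8459 expected counts, a ratio of 0.732 (counting interval of the count ratio 0.702 to 0.742). PSMC1, the ATPase Rpt2, had the highest, with 235 in DMSO and 229 in FIN56 and a ratio of 0.973. PSMC5 lies on chromosome 17 (63827152 to 63832026, plus strand, GRCh38), where FTSJ3 covers 655 of its exonic bases on the opposite strand. FTSJ3 had 5445 and 4124 expected counts, so both genes of this locus were lower with FIN56. The part of FTSJ3 reads in the PSMC5 value was not tested.

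The base genes without ATPase activity differed among themselves. PSMD2 had 333 FPKM in DMSO and 352 in FIN56, a ratio of 1.06. PSMD4, the ubiquitin receptor Rpn10, had 157 and 139, a ratio of 0.883. PSMD1, the other scaffold of the base, had 67.7 and 67.1. Its ratio was 0.991 by FPKM and 0.939 by counts.

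The lid held the only proteasome gene past 1.2 upwards and, beside it, a gene past 1.2 downwards. PSMD12 (Rpn5; chromosome 17, 67337916 to 67366605, minus strand) had 80.7 FPKM in DMSO and 102 in FIN56, from 10221 and 13512 expected counts. Its ratio was 1.262, and the count ratio of 1.27 had an interval of 1.24 to 1.303. PSMD13 (Rpn9; chromosome 11, 236966 to 252984, plus strand) had 202 in DMSO and 154 in FIN56, from 20067 and 15506 whole counts, and its ratio was 0.760 with an interval of 0.727 to 0.758 on the count scale. Rpn5 and Rpn9 are neighbouring structural subunits of the lid, and their transcripts differed in opposite directions. The other 6 lid genes lay between 0.924 (PSMD3) and 1.05 (PSMD11). PSMD14, the metalloprotease that removes ubiquitin from substrates, had 80.0 and 83.5.

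**Figure D4:**
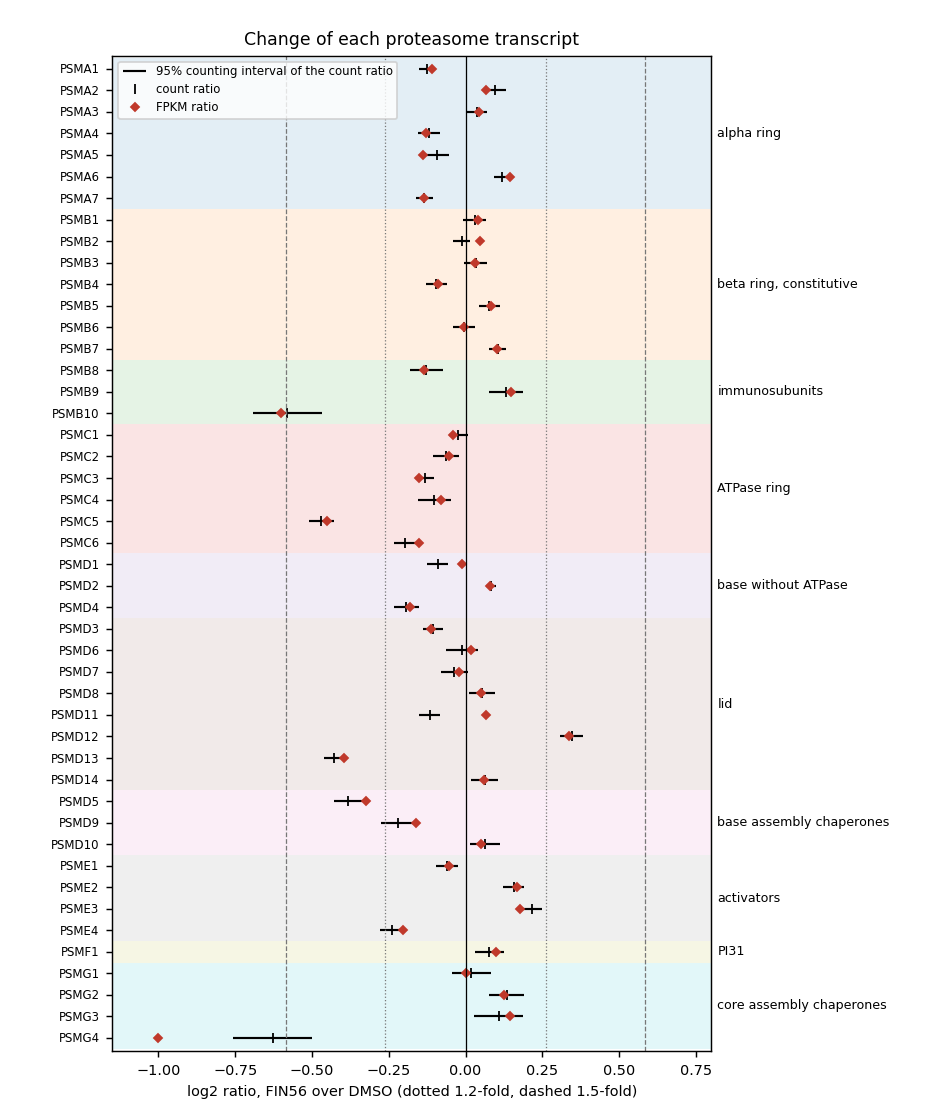
Log2 ratio, FIN56 over DMSO, of each proteasome gene by role. Red diamonds are FPKM ratios, black ticks are count ratios scaled by library totals with their 95% counting interval, and vertical lines mark folds of 1.2 (dotted) and 1.5 (dashed). All 6 ATPase genes lie left of 0 on both scales (PSMC1 does not by rlog or DESeq2 size factors), and PSMD11 and PSMG4 show the widest gap between the FPKM and the count ratio.

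Another motif was common across the barrel and its regulator. The core of ETS factor sites, searched as CGGAAG on both strands, was in the promoter windows of 25 of the 42 genes (59.5%) and of 22.6% of all genes in the table. It is shown for the 3 genes of the 19S regulator past 1.2, with the match or its reverse complement in capitals.
PSMC5 (chr17:63827420-63827449, plus): cccaatcctccgCTTCCGcgcttgcgcgcc
PSMD12 (chr17:67366568-67366597, minus): gtgcgcgggcaaCTTCCGgtgtgggtgacg
PSMD13 (chr11:236953-236982, plus): gccgctcggcgcCGGAAGtgagtgagcatt
All 3 matches lie within 11 bases of the RefSeq start, although PSMD12 was higher with FIN56 and PSMC5 and PSMD13 were lower. The median log2 ratio was -0.068 for the 24 tested genes with a match and 0.047 for those without. The pattern TGANNNNGC is a loose form of the antioxidant response element of NFE2L1 and NFE2L2. It was in 66.7% of the 42 genes and 47.1% of all genes. Its free bases also match stretches that are not sites of these factors. The CCAAT box (CCAAT) was in 47.6% and 39.7%, and the STAT site (TTCNNNGAA) in 8 of the 42 genes and 9.38% of all genes. Medians with and without the loose pattern TGANNNNGC were -0.033 and -0.0016. For the CCAAT box they were 0.032 and -0.080, and for the STAT site 0.067 and -0.021, over 19 and 7 tested genes with a match. Genes with the CCAAT box or the STAT site thus stood higher than those without, and genes with the antioxidant response element core lower. These differences were not tested.

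The 4 activators, which open the gate of the core without ATP, had 2 genes higher and 2 lower. PSME2 and PSME1 encode the subunits of PA28, the interferon-inducible activator. PSME2 had 256 FPKM in DMSO and 287 in FIN56, a ratio of 1.12, whereas PSME1 had 196 and 189, a ratio of 0.964. PSME3, the nuclear PA28 gamma, had the highest ratio of the activators. Its FPKM was 110 in DMSO and 124 in FIN56, a ratio of 1.13, and the interval of its count ratio was 1.14 to 1.19. PSME4, which encodes PA200, had the lowest, with 30.2 and 26.2 and a ratio of 0.868. The regulator PI31, encoded by PSMF1, had 73.5 and 78.8, a ratio of 1.07.

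Of the 7 assembly chaperones 4 were higher and 3 lower, though PSMG1, at 1.001, was below 1 when ratios were centred on the genes of like level. Among the chaperones of the base, PSMD5 (S5b) had 40.3 FPKM in DMSO and 32.2 in FIN56, from 8625 and 6883 whole counts. Its ratio was 0.799, and its count ratio of 0.767 had an interval of 0.743 to 0.791. PSMD9 (p27) had 73.7 and 65.9, and PSMD10, the oncoprotein gankyrin, 66.6 and 68.9, a ratio of 1.03. The chaperones of the core form pairs, PSMG1 with PSMG2 and PSMG3 with PSMG4. PSMG1 had 80.6 and 80.7, PSMG2 69.7 and 75.95, and PSMG3 42.3 and 46.7, the highest ratio of these chaperones at 1.10.

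PSMG4 (ENSG00000180822, chromosome 6, 3231403 to 3303373, plus strand) had the lowest ratio of all proteasome genes. Its FPKM was 19.2 in DMSO and 9.61 in FIN56, the lowest levels of the 46 genes, and the ratio was 0.500. Its expected counts were 1220 and 822, and the count ratio was 0.647 with an interval of 0.592 to 0.708. The effective length by which the FPKM is divided moved with it, from 904 bases in DMSO to 1170 in FIN56, a ratio of 1.29. The counts were not whole, and SLC22A23 covers 1388 of the exonic bases of PSMG4 on the opposite strand. Its partner PSMG3, with whole counts of 2420 and 2715, was higher with FIN56.

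For 43 of the 46 genes the FPKM ratio and the count ratio differed by less than 5%. The others were PSMG4, PSMD11 and PSMD1. PSMD11, the lid subunit Rpn6, had 122 FPKM in DMSO and 127 in FIN56, while its expected counts were 14900 and 14299. Its ratio was 1.05 by FPKM and 0.922 by counts, with an effective length of 1743 bases in DMSO and 1535 in FIN56. PSMB2, PSMD6 and PSMD11 were the 3 genes with opposite signs on these scales, and they give no direction.

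The last 2 proteasome genes belong to other tissues. PSMA8, an alpha subunit of the testis, had 0 expected counts in both libraries, which allows up to 3 counts, or 0.0427 CPM (counts per total, scaled) in DMSO and 0.0411 in FIN56. PSMB11, the subunit of the thymoproteasome, had 1 count in DMSO and 0 in FIN56. No fold is given for either.

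The related genes outside the symbol rule, a list of 31, had a median log2 FPKM ratio of 0.11, with 20 higher and 11 lower, while 3915 of the 6919 genes of like level were higher. At 1.2 or more were 4 of them, where the background was 19.1% of genes of like level, and at 1/1.2 or less 2, against 15.8%. None was past 1.5. Among subunits and assembly factors of the proteasome, POMP, a maturation factor of the core, had 122 FPKM in DMSO and 147 in FIN56, a ratio of 1.201. SEM1, a small lid subunit, had 125 and 126, and ADRM1, the ubiquitin receptor Rpn13, 91.3 and 98.5. ECPAS, an adaptor of the proteasome, had 32.6 and 25.9, a ratio of 0.794.

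All 4 genes listed for the transcription control of proteasome genes were higher with FIN56. So were 3915 of the 6919 genes of like level, whose median ratio was 1.03. NFE2L1, the factor that raises proteasome genes when proteolysis is impaired, had 77.7 FPKM in DMSO and 98.0 in FIN56, a ratio of 1.261 by FPKM and 1.16 by counts. NGLY1 and DDI2, which process the NFE2L1 protein, had ratios of 1.06 and 1.18, and NFE2L2 1.15. The counting interval of NGLY1 included 1. USP14, the deubiquitinase bound to the base, had 58.1 and 76.8, a ratio of 1.32 by FPKM and 1.13 by counts. VCP, the segregase that extracts ubiquitinated proteins for the proteasome, had 176 and 128, a ratio of 0.726 by FPKM and 0.732 by counts, the lowest of the list. Beside NFE2L1, the medians of the core and the 19S genes were 0.036 and -0.040 on the log2 FPKM scale. A link between them was not tested.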

How the data were processed

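Bulk RNA of HSC-3 cells was sequenced in 2 libraries, 1 with the vehicle DMSO and 1 with FIN56, from a stranded mRNA kit per the labels. By the methods of the study, written for tumor samples, and the submitters' processing notes, the authors checked reads with FastQC 0.11.7, aligned them to GRCh38 with STAR 2.6.1a and quantified genes with RSEM 1.3.1. The strand setting of the counting is not given in the sources used here. Expected counts, as the authors deposited them, are estimates that divide shared reads between genes. In the deposited FPKM and TPM tables the authors scaled these for effective length and depth. The authors made the deposited rlog table, on a log2 scale, with DESeq2 1.26.0.

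The ratio of deposited FPKM values was computed for genes above 0 in both libraries, with the fold of 1.5 that the study uses and a second fold of 1.2. Exact binomial intervals (Clopper-Pearson, 95%) were computed from rounded expected counts (totals of 70184517 and 73062209) scaled by the totals. They cover counting error only, and neither the spread between libraries nor the division of shared reads between genes. The reads carry no molecular identifiers and may stem from the same molecule, so the intervals may be too narrow even for counting error. With 1 library per condition there was no test between conditions and no p-value. Members were grouped by role. The named genes were PSMB5 to PSMB10, the highest and lowest ratio of each group, members past a fold, the 5 highest and 5 lowest levels, members with fewer than 100 counts, and, of a list of 31 related genes, those past a fold of 1.2 with POMP, SEM1, ADRM1 and NFE2L1. Other genes given with values, such as TAP1, NLRC5, NGLY1, DDI2, NFE2L2, PSMD1, PSMD9, PSMD11, PSMD14, PSMG1 and PSMG2, were chosen after their values were seen. Members and lists were chosen with earlier results of these data known. Positions came from GENCODE release 44 on GRCh38, and promoters from RefSeq (GRCh38.p14). Alternatives were TPM, rlog, counts scaled by library totals, by edgeR 4.0.16 TMM or by DESeq2 1.42.0 size factors, a pseudocount of 1 FPKM, and filters on low values. Centring on genes of like level, and adding the counts of pseudogenes or of overlapping genes, were chosen after seeing the data. Protein identity between immunosubunits and their counterparts was not analysed here, and 0 columns were without a sample. The counting interval and the fold of the counts were checked on counts simulated with counting error alone. That check did not cover the FPKM ratio, shared reads, the spread between libraries or the motif search. Python 3.11.15 with scipy 1.17.1 and pandas 2.3.3 and R 4.3.3 were used.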

Additional observations from a re-analysis of the deposited data

How the results depend on the processing

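No paired analysis was possible because DMSO and FIN56 were sequenced once each, which also left no replicate to omit. The median log2 ratio of all genes lay between -0.034 (TMM) and 0.020 (TPM) over the scalings, against 0 by FPKM. The count of proteasome genes at 1/1.5 or less, 2 by FPKM, was 1 with TPM, library totals, TMM, DESeq2 size factors, a pseudocount, or pseudogene or overlapping counts added, where PSMB10 no longer passed, 0 with rlog values or whole counts only, and 5 at a threshold of 1.2. The count at 1.5 or more, 0, was 1 at that threshold. At 1.2 the counts of 1 higher and 5 lower genes were 0 and 0 with rlog values, which shrink differences, and 0 and 2 with the 22 genes whose counts were whole within 0.01. The 19S median of -0.040 was -0.0087 with TPM, -0.091 with library totals and with pseudogene or overlapping counts added, -0.093 with TMM, -0.080 with whole counts only and -0.084 centred on genes of like level. The core median of 0.036 was -0.0083 when so centred, so its sign depends on the centring. The median of the immunosubunits moved from -0.14 to -0.038 with rlog values. The median of all 46 genes lay between -0.053 (centred) and 0.023 (TPM). With library totals, 3 of the 46 genes had the other sign. The cause was not tested. PSMA8 and PSMB11 lay under the limit of 3 counts.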

Other observations

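Pseudogenes named after proteasome genes were listed 42 times, for 16 parents, and 18 of them had 0 counts in both libraries. At least 100 expected counts in both libraries were assigned to 4, namely PSMC1P1, PSMC1P5, PSMA6P1 and PSME2P2. PSMC1P1 had 907 counts in DMSO and 902 in FIN56, 5.27% and 5.11% of those of PSMC1. PSMA6P1 had 517 and 585, with a count ratio of 1.09 (counting interval 0.964 to 1.23), and PSME2P2 had 326 and 368.

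Antisense genes were listed 5 times. PSMA3-AS1 had 3362 expected counts in DMSO and 2597 in FIN56, a count ratio of 0.742 with a counting interval of 0.705 to 0.781, while PSMA3 had a ratio of 1.03. PSMB8-AS1 had 433 and 423, and its interval of 0.819 to 1.08 included 1.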
